A study of Mus musculus with 4 samples.

Results

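The genes described here are the nuclear genes for subunits of the mitochondrial respiratory chain and ATP synthase, with the assembly factors that share their names. They were taken from the table by name. A gene was a member if it was listed as protein coding, did not lie on the mitochondrial chromosome, and had a symbol beginning with Nduf, Uqcr, Cox4 to Cox8 or Atp5, or was Sdha, Sdhb, Sdhc or Sdhd. That gave 92 of the 54149 genes listed: 36 subunits of complex I and 8 of its assembly factors, 4 genes of complex II, 8 of complex III, 20 of complex IV and 16 of complex V. The libraries were made from poly(A)-selected liver RNA of adult female mice, strain C57BL/6 x 129S4/SvJae. The groups were Utx KO mice, with a liver-specific knockout, and WT mice of the same age and sex. Both groups had been fasted for 16 h and then injected with 300 mg/kg acetaminophen (APAP), a painkiller that damages hepatocytes at high dose, so the effect of the drug itself was not measured. Each group had 2 libraries, and each library was a pool of liver RNA from 2 mice. The promoter that drove the deletion and the time from injection to collection are not stated in the sources used here.

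The respiratory chain sits in the inner mitochondrial membrane. Complex I takes electrons from NADH and complex II takes them from succinate, and both pass them to coenzyme Q. Complex III moves them on to cytochrome c, and complex IV hands them to oxygen. Complexes I, III and IV pump protons out of the matrix, and complex V, the ATP synthase, lets protons flow back and makes ATP. A few core subunits are encoded in mitochondrial DNA, and all other subunits are made from nuclear genes and imported. Hepatocytes are rich in mitochondria, and the reactive metabolite of acetaminophen binds mitochondrial proteins in mouse liver. Utx, listed as Kdm6a, is a histone demethylase that acts on methylated lysine 27 of histone H3.

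The reads recovered from the table came to 17804730 and 16330451 in the KO pools and to 16580979 and 16669038 in the WT pools. Kdm6a stood at 2.20 and 2.12 FPKM in the KO pools, against 3.40 and 3.85 FPKM in the WT pools, so its transcripts were lower in both KO pools but present (log2 fold change -0.63, SE 0.13, limma adjusted p = 0.0715). The liver label held: Alb, the albumin gene, took 5.40% to 6.93% of the reads of each pool. Of 6 hepatocyte markers 0 passed the test, with a median log2 fold change of 0.06. Transcripts of other cells differed. Of 6 neutrophil markers, all tested, 4 fell in KO (S100a8, S100a9, Clec4d and Mmp9), where 3.14% of all genes tested fell. The 6 summed to 37.9 and 33.8 FPKM in KO, against 116 and 175 FPKM in WT. Of 5 cholangiocyte markers 3 were tested and 1 of these, Sox9, fell (3.14% of all genes tested). The 5 summed to 38.8 and 17.5 FPKM in KO, against 263 and 102 FPKM in WT. With 1 pool left out these calls were mostly lost: adjusted p ran from 0.0465 to 0.0869 for S100a8 and S100a9, 0.0742 to 0.0973 for Clec4d, 0.0767 to 0.114 for Mmp9 and 0.0462 to 0.0643 for Sox9. All 5 were lost with no filter on low values (0.103 to 0.116), and Clec4d and Mmp9 with the replicate block (0.0566 and 0.0716). The Kupffer cell, endothelial and stellate cell lists had 0 members past the threshold and medians of 0.04, -0.24 and -0.23. Erythroid genes had a median of -0.37, also with 0 calls. The skeletal muscle markers Ckm, Acta1, Myh4 and Tnnt3 stayed under 0.1 FPKM in every pool, and the Y-linked genes were listed at 0. The 3 brown adipocyte markers summed to 1.62 and 0.831 FPKM in KO, against 1.52 and 2.97 FPKM in WT. Of these Ucp1 was listed at 0 in every pool, and Elovl3, the only one tested, was lower in both KO pools without passing the test (log2 fold change -0.80, limma adjusted p = 0.180). Mitochondrial ribosomal RNAs, which poly(A) selection captures poorly, made up 0.108% and 0.158% of reads in KO, against 0.244% and 0.251% in WT. The part of these differences in the results below was not tested. In such tissue samples, fewer cells of a type and less RNA per cell cannot be told apart.

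Most of these genes were somewhat higher in the KO livers, and none of them passed the test alone. Their reads made up 1.11% and 1.09% of all reads in the KO pools (exact 95% intervals 1.107% to 1.116% and 1.080% to 1.090%), against 0.838% and 0.919% in the WT pools (0.834% to 0.842% and 0.915% to 0.924%). The intervals cover counting error only. Levels are given as FPKM, fragments per kilobase of listed gene length relative to a library total. Summed over the 92 genes, the level was 7096 and 6556 FPKM in the KO pools, against 5309.8 and 6332 FPKM in the WT pools, so the groups did not overlap, and the ratio of the group means was 1.17. In this sum WT pool 2 lay closer to the KO pools than to WT pool 1. In the share of reads WT pool 2 lay closer to WT pool 1. The library totals behind FPKM were 1.00 and 1.05 times the recovered reads in the KO pools, and 1.02 and 0.943 times in the WT pools. An exact permutation test of 2 pools against 2 cannot give a p below 0.333, so the sum was not tested.

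Single genes were tested with limma on log2(FPKM + 0.5). The test took genes that averaged 1 FPKM or more across the 4 pools, 11900 in all and 85 of the 92 members, and Benjamini-Hochberg adjusted p under 0.05 was the threshold. Of the 85 tested members, 0 were called higher and 0 lower. Over all genes tested, 564 were called, 4.74%, of which 190 (1.60%) were higher and 374 (3.14%) lower in KO. With FPKM rescaled to the listed reads the split was 211 higher and 255 lower, so 45.3% of calls were higher in place of 33.7%, and the members' count stayed at 0. Fewer genes were called with any 1 pool left out, where the fit had 1 residual degree of freedom in place of 2. Whether this came from the pool removed or from the smaller number of pools was not tested. At an unadjusted p under 0.05, 15 members were higher and 0 lower, against 12.7% and 14.4% of all genes tested. The alternative test, limma voom on the recovered reads, called 1 member, Ndufs7. With protein-coding genes alone in the test, 2 members were called, Ndufs7 and Ndufaf3.

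The fitted log2 fold change was above 0 in 80 of the 85 tested members, and in 51.4% of all genes tested. Its median was 0.27, with quartiles at 0.17 and 0.35, against a median of 0.01 over all genes tested. Genes with mean levels between the members' quartiles had a median of 0.03. In 58 members both KO pools lay above both WT pools, which held for 31.6% of all genes tested. In 1 member, Ndufaf6, both KO pools lay below, against 29.9% of all genes. The remaining 26 overlapped. The differences were small: 78 members had a fitted KO level between 1 and 1.5 times the WT level, and 2, Ndufaf3 and Cox6b2, a higher one. The 95% confidence interval ended below 2-fold in 81 of the 85, and included 1.5-fold in 60. Absence of a call therefore does not show equal levels.

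The 4 pools did not stand in 2 tight pairs. WT pool 1 was the lowest of the 4 in 74 of the 85 tested members (27.8% of all genes tested), and KO pool 1 the highest in 66 (28.8% of all genes). Against WT pool 2 alone, both KO pools were higher in 59 of 85 members (41.2% of all genes), with a median log2 difference of 0.14 in place of 0.27. Against WT pool 1 alone, both KO pools were higher in 79 members (42.3% of all genes), with a median of 0.36. The median was 0.34 with KO pool 1 alone and 0.19 with KO pool 2 alone, both against the 2 WT pools. Relative to each gene's own mean, the members' median was 0.20 in KO pool 1, 0.07 in KO pool 2, -0.25 in WT pool 1 and -0.01 in WT pool 2.

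**Figure D1:**
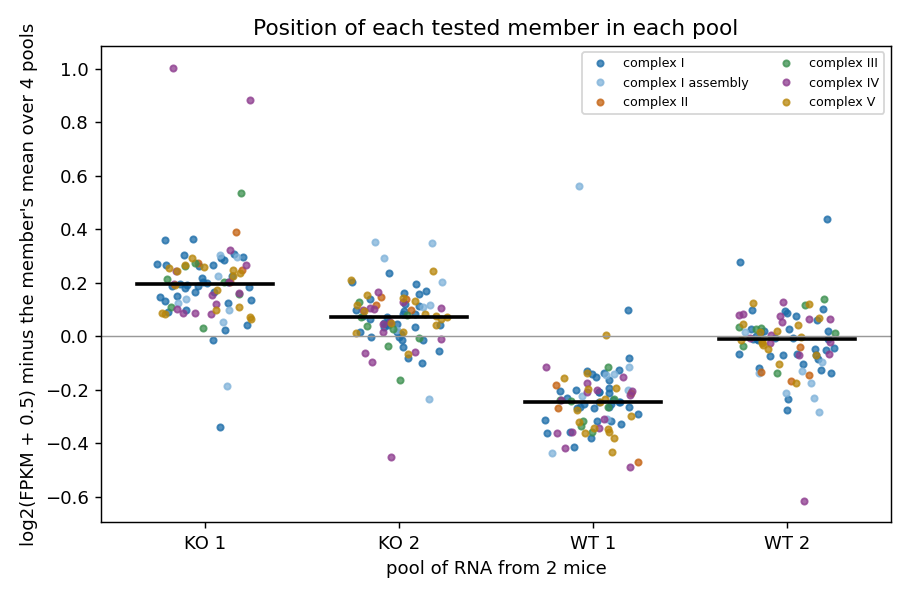
Each point is 1 of the 85 tested members, coloured by complex. The vertical axis gives its log2(FPKM + 0.5) in a pool minus its mean over the 4 pools, and black lines are medians, which lie at 0.20 and 0.07 in the KO pools and at -0.25 and -0.01 in the WT pools.

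Levels spanned several orders of magnitude. Over the 4 pools, 22 members averaged at least 100 FPKM, 51 between 10 and 100, 12 between 1 and 10, and 7 under 1 FPKM. Those 7 were Ndufs3 and the isoforms Cox6a2, Ndufa4l2, Cox4i2, Cox8b, Cox7b2 and Cox8c, and they were not tested. The lowest tested member, Ndufb2, averaged 1.36 ± 0.149 FPKM in KO and 1.20 ± 0.277 FPKM in WT, so no tested member passed the filter through 1 group alone. The highest was Cox6a1, a subunit of complex IV, at 449 and 438 FPKM in the KO pools, against 390.3 and 415 FPKM in the WT pools (log2 fold change 0.14, SE 0.13, limma adjusted p = 0.539). Among complex V genes the highest was Atp5b, the catalytic beta subunit, at 338 and 329 FPKM in the KO pools, against 254 and 285 FPKM in the WT pools.

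**Figure D2:**
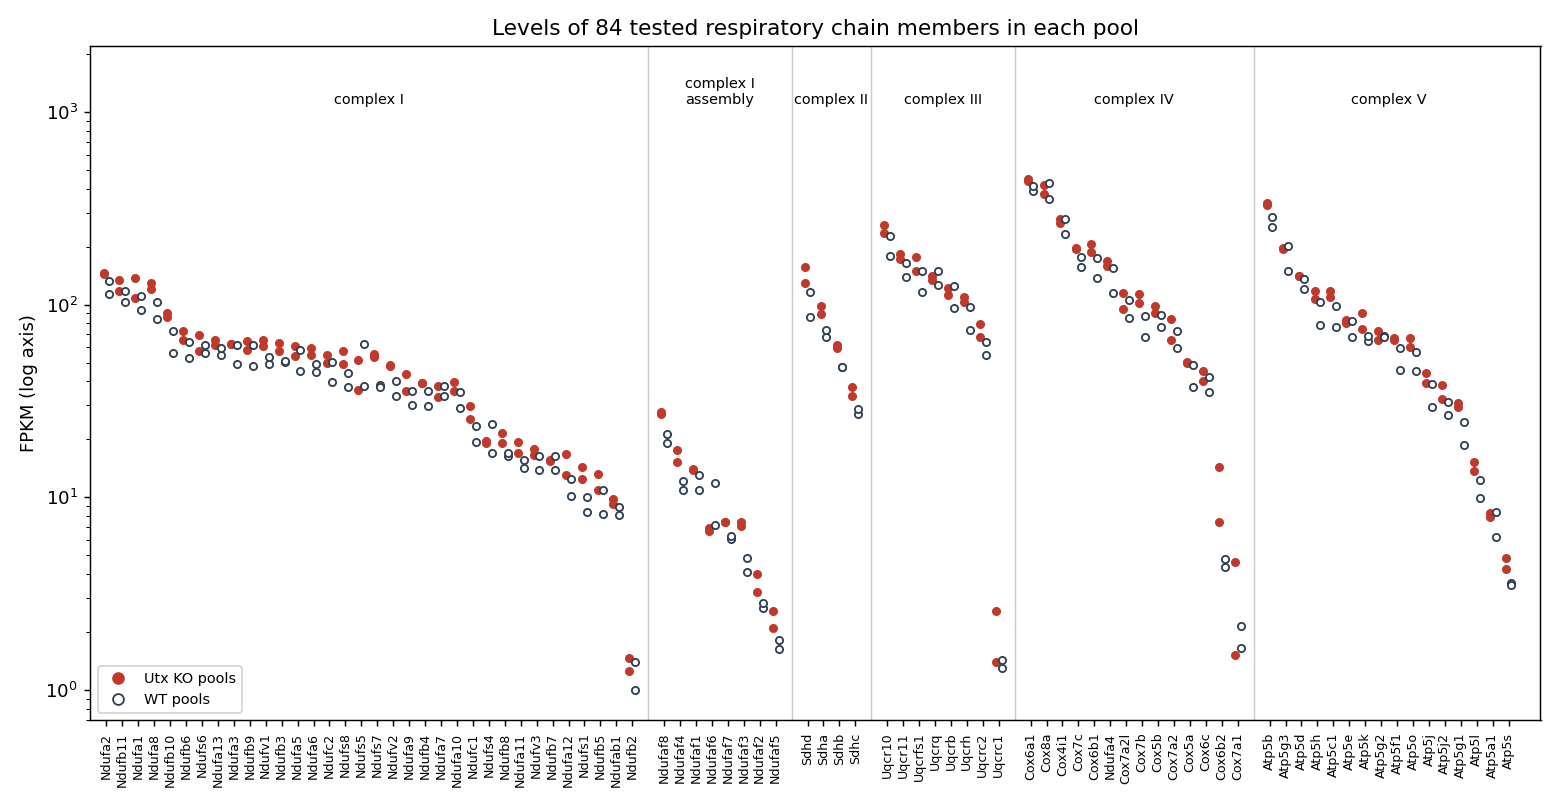
Level of 84 of the 85 tested members in each pool, in FPKM on a log axis, grouped by complex and ordered by mean level. Filled points are the 2 KO pools and open points the 2 WT pools, drawn side by side; Cox6a1 is the highest and Ndufb2 among the lowest.

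Promoters of nuclear respiratory genes often hold sites for the factors NRF1, GABP (an ETS factor) and YY1. The 250 bases before RefSeq's start of each gene were read from the RefSeq promoter table (GRCm38.p6), which matched 74 of the 92 members by symbol. GCATGCG, a core of the NRF1 site, was searched on both strands and found in 9 of the 74 (12.2%), against 3.07% of all 27025 promoters. CCGGAAG, an ETS core, was found in 13 (17.6%), against 7.05% of all promoters. AGATGGC, a YY1 core, was found in 2 (2.70%), against 4.53% of all. Any of the 3 was found in 22 (29.7%), against 13.8% of all. The median log2 fold change was 0.30 in the 9 tested members with the NRF1 letters and 0.27 in the 62 without, and 0.28 both in the 12 with the ETS letters and in the 59 without. A match of letters is not a site in use. The sequences of 6 promoters are shown, 3 with a match and 3 without, because these genes are among the members with the smallest p or the largest fold change. Each reads 5′ to 3′ in the direction of the gene and ends at the base before RefSeq's start, which need not be the table's, and capitals mark the match.
Sdhd, chr9:50603850-50604099, minus strand: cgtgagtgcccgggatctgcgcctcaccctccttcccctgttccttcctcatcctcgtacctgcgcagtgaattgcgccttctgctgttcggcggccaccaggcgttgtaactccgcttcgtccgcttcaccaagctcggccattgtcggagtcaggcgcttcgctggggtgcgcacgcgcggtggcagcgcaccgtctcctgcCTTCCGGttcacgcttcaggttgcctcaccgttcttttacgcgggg
Sdhb, chr4:140961021-140961270, plus strand: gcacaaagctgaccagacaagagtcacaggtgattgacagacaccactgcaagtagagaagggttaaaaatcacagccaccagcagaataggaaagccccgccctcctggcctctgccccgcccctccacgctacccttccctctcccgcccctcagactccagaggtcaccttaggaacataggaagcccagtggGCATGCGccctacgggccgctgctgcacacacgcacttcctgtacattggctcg
Ndufaf4, chr4:24897833-24898082, plus strand: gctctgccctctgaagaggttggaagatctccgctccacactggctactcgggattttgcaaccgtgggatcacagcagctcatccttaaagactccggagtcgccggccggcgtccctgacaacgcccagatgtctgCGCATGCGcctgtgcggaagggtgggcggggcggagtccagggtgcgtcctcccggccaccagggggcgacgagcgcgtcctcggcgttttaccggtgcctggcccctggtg
Ndufs7, chr10:80249199-80249448, plus strand: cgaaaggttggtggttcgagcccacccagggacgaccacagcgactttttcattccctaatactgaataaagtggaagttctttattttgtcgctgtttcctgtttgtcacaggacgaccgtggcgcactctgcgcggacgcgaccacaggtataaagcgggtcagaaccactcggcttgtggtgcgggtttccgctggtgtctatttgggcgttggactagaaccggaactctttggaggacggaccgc
Ndufaf3, chr9:108567437-108567686, minus strand: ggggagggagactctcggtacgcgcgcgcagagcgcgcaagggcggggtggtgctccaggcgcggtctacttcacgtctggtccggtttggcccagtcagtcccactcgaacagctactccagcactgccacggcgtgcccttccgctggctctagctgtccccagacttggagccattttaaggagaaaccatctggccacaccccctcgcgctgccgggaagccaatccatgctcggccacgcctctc
Cox6b2, chr7:4753095-4753344, minus strand: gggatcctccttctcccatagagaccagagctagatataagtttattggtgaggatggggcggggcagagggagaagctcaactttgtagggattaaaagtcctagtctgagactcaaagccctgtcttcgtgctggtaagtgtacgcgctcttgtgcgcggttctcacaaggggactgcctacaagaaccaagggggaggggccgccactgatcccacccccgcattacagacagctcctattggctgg
In Sdhd the capitals are the ETS letters read on the other strand, and in Sdhb the NRF1 letters. In Ndufaf4 they are NRF1 letters on both strands, which overlap. Ndufs7, Ndufaf3 and Cox6b2 have none of the 3 motifs in this window. The whole Ndufs7 window lies inside the gene as listed, which starts at 80249121, so the sequence before the listed start was not searched. In Sdhb the match lies after the listed start, at 140961203.

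Complex I has core subunits, which hold the flavin and the iron-sulfur clusters that carry electrons, and accessory subunits around them. Of the 7 nuclear core subunits 6 were tested. In each of the 6 both KO pools lay above both WT pools (31.6% of all genes tested). Their median log2 fold change was 0.38, and it was 0.29 against WT pool 2 alone. Their summed level, Ndufs3 included, was 335 and 308 FPKM in the KO pools, against 233 and 257 FPKM in the WT pools. The smallest p was that of Ndufs7 (ENSMUSG00000020153, chromosome 10, 80249121 to 80256794, plus strand), which carries the iron-sulfur cluster next to the coenzyme Q site. It stood at 55.4 and 53.7 FPKM in the KO pools, against 38.3 and 37.5 FPKM in the WT pools, 2 tight pairs that were well apart. It had a log2 fold change of 0.52 (SE 0.10) and a limma adjusted p of 0.0631, and a 95% interval of 0.25 to 0.79, just outside the threshold. The adjusted p was 0.0429 with voom on the recovered reads and 0.0465 with protein-coding genes alone. In the other 16 of 18 alternative settings Ndufs7 stayed outside the threshold. Its log2 fold change ran from 0.47 to 0.58 over the 18.

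Ndufs1, the largest core subunit, was measured at 14.3 and 12.5 FPKM in the KO pools, against 8.38 and 10.02 FPKM in the WT pools (log2 fold change 0.52, SE 0.14, limma adjusted p = 0.107). Ndufv2, an iron-sulfur subunit of the NADH-oxidizing tip, was measured at 47.8 and 48.6 FPKM in the KO pools, against 33.7 and 40.2 FPKM in the WT pools (log2 fold change 0.38, SE 0.13, limma adjusted p = 0.151). Both were higher in each KO pool than in either WT pool, and neither passed the test. Ndufv1, which binds NADH and the flavin, averaged 63.3 ± 3.37 FPKM in KO and 51.6 ± 3.06 FPKM in WT (SD, n = 2 each). Ndufs8, another iron-sulfur subunit, averaged 53.3 ± 5.79 FPKM in KO and 40.8 ± 4.93 FPKM in WT. Their fitted log2 fold changes were 0.29 and 0.38.

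The 29 accessory subunits of complex I have no part in electron transfer themselves and stabilise the complex. All were tested. In 17 both KO pools lay above both WT pools (31.6% of all genes tested), in 0 below (29.9% of all genes), and 12 overlapped. Their median log2 fold change was 0.23, and 0.11 against WT pool 2 alone. The lowest adjusted p among them was 0.160. That was Ndufa8, a subunit of the intermembrane space side, at 129.9 and 121 FPKM in the KO pools, against 84.1 and 103 FPKM in the WT pools. Next came Ndufb10, of the membrane arm, at 90.4 and 86.1 FPKM in the KO pools, against 56.4 and 72.95 FPKM in the WT pools (log2 fold change 0.46, limma adjusted p = 0.164). The accessory subunit with the highest level, Ndufa2, was measured at 146 and 144 FPKM in the KO pools, against 114 and 132 FPKM in the WT pools (log2 fold change 0.24, SE 0.13, limma adjusted p = 0.305).

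In 3 of the 29 accessory subunits, Ndufs5, Ndufs4 and Ndufa7, the fitted log2 fold change was below 0. Ndufs5 had the lowest fitted value, at 36.1 and 51.5 FPKM in the KO pools, against 37.9 and 62.3 FPKM in the WT pools (log2 fold change -0.17, SE 0.30, limma adjusted p = 0.752). Its pools split by number and not by genotype, with the first pool of each group low. Of its 100-base stretches, 19.8% also occur in the transcript of BC002163, which took 342 and 13 reads in the KO pools and 131 and 9 in the WT pools, where Ndufs5 took 553 and 760 in KO and 551 and 842 in WT. How the authors divided reads between such copies is not stated in the sources used here. Ndufs4, needed for a stable NADH-oxidizing module, stood at 19.6 and 19.1 FPKM in the KO pools, against 17.1 and 24.1 FPKM in the WT pools (log2 fold change -0.07, and 0.18 without WT pool 2, the highest). Ndufa7 had 37.99 and 33.1 FPKM in the KO pools, against 33.5 and 37.7 FPKM in the WT pools, with overlapping groups and a log2 fold change of -0.0033 (0.06 with FPKM rescaled to the listed reads). Ndufb7, just above 0, stood at 15.6 and 15.5 FPKM in the KO pools, against 13.9 and 16.4 FPKM in the WT pools (log2 fold change 0.04).

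The assembly factors of complex I build it from modules and are not part of the finished enzyme. All 8 were tested. In 7 both KO pools lay above both WT pools (31.6% of all genes tested). In the other, Ndufaf6, both lay below (29.9% of all genes). The median log2 fold change was 0.34, and 0.35 against WT pool 2 alone. The summed level was 84.2 and 86.02 FPKM in the KO pools, against 69.8 and 67.2 FPKM in the WT pools. Ndufaf3 (ENSMUSG00000070283, chromosome 9, 108565537 to 108567434, minus strand) had the smallest p of all 92 genes. It stood at 7.14 and 7.46 FPKM in the KO pools, against 4.11 and 4.87 FPKM in the WT pools (log2 fold change 0.65, SE 0.13, limma adjusted p = 0.0630, 95% interval 0.32 to 0.98). Its adjusted p was 0.0404 with protein-coding genes alone. In the other 17 of 18 alternative settings Ndufaf3 stayed outside the threshold, and its log2 fold change ran from 0.54 to 0.76 over the 18. Ndufaf4, which binds Ndufaf3 in the module that meets coenzyme Q, was measured at 15.2 and 17.6 FPKM in the KO pools, against 10.97 and 12.1 FPKM in the WT pools (log2 fold change 0.49, SE 0.13, limma adjusted p = 0.101).

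Ndufaf8 was measured at 27.6 and 27.1 FPKM in the KO pools, against 21.2 and 19.2 FPKM in the WT pools (log2 fold change 0.43, SE 0.11, limma adjusted p = 0.0945). It stabilises Ndufaf5, an enzyme that modifies Ndufs7, and Ndufaf5 itself was the lowest of the group, at 2.10 and 2.58 FPKM in the KO pools, against 1.82 and 1.64 FPKM in the WT pools (log2 fold change 0.35, limma adjusted p = 0.261). Ndufaf7, a methyltransferase, averaged 7.44 ± 0.0232 FPKM in KO and 6.22 ± 0.150 FPKM in WT (SD, n = 2 each). Ndufs7 was likewise higher in both KO pools. Ndufaf6, which works early in assembly, was measured at 6.90 and 6.66 FPKM in the KO pools, against 11.9 and 7.16 FPKM in the WT pools (log2 fold change -0.42, SE 0.25, limma adjusted p = 0.340, 95% interval -1.08 to 0.24). WT pool 1 was far above the other 3, which lay close together.

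Complex II, succinate dehydrogenase, is also an enzyme of the TCA cycle, and all of its subunits come from nuclear genes. All 4 did not overlap, with KO higher (31.6% of all genes tested). The median log2 fold change was 0.38, against 0.32 with WT pool 2 alone. Their summed level was 355 and 313 FPKM in the KO pools, against 229 and 267 FPKM in the WT pools, a ratio of means of 1.35. Sdha, the flavin subunit that oxidises succinate, stood at 98.9 and 89.9 FPKM in the KO pools, against 67.7 and 73.7 FPKM in the WT pools (log2 fold change 0.41, SE 0.12, limma adjusted p = 0.120). Sdhb, the iron-sulfur subunit, stood at 61.9 and 59.6 FPKM in the KO pools, against 47.3 and 47.7 FPKM in the WT pools (log2 fold change 0.35, SE 0.10, limma adjusted p = 0.121). In both genes the pools of a group lay close together relative to the gap between groups. The membrane anchors Sdhc and Sdhd hold the heme and the coenzyme Q site. Sdhc was measured at 37.5 and 33.7 FPKM in the KO pools, against 27.2 and 28.7 FPKM in the WT pools (log2 fold change 0.34, SE 0.11, limma adjusted p = 0.145). Sdhd, the most abundant, was measured at 157 and 129.8 FPKM in the KO pools, against 86.3 and 116 FPKM in the WT pools (log2 fold change 0.51, SE 0.20, limma adjusted p = 0.195), with wider spread in both groups. Sdhb and Sdhd are the promoters printed above with the NRF1 and the ETS letters.

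**Figure D3:**
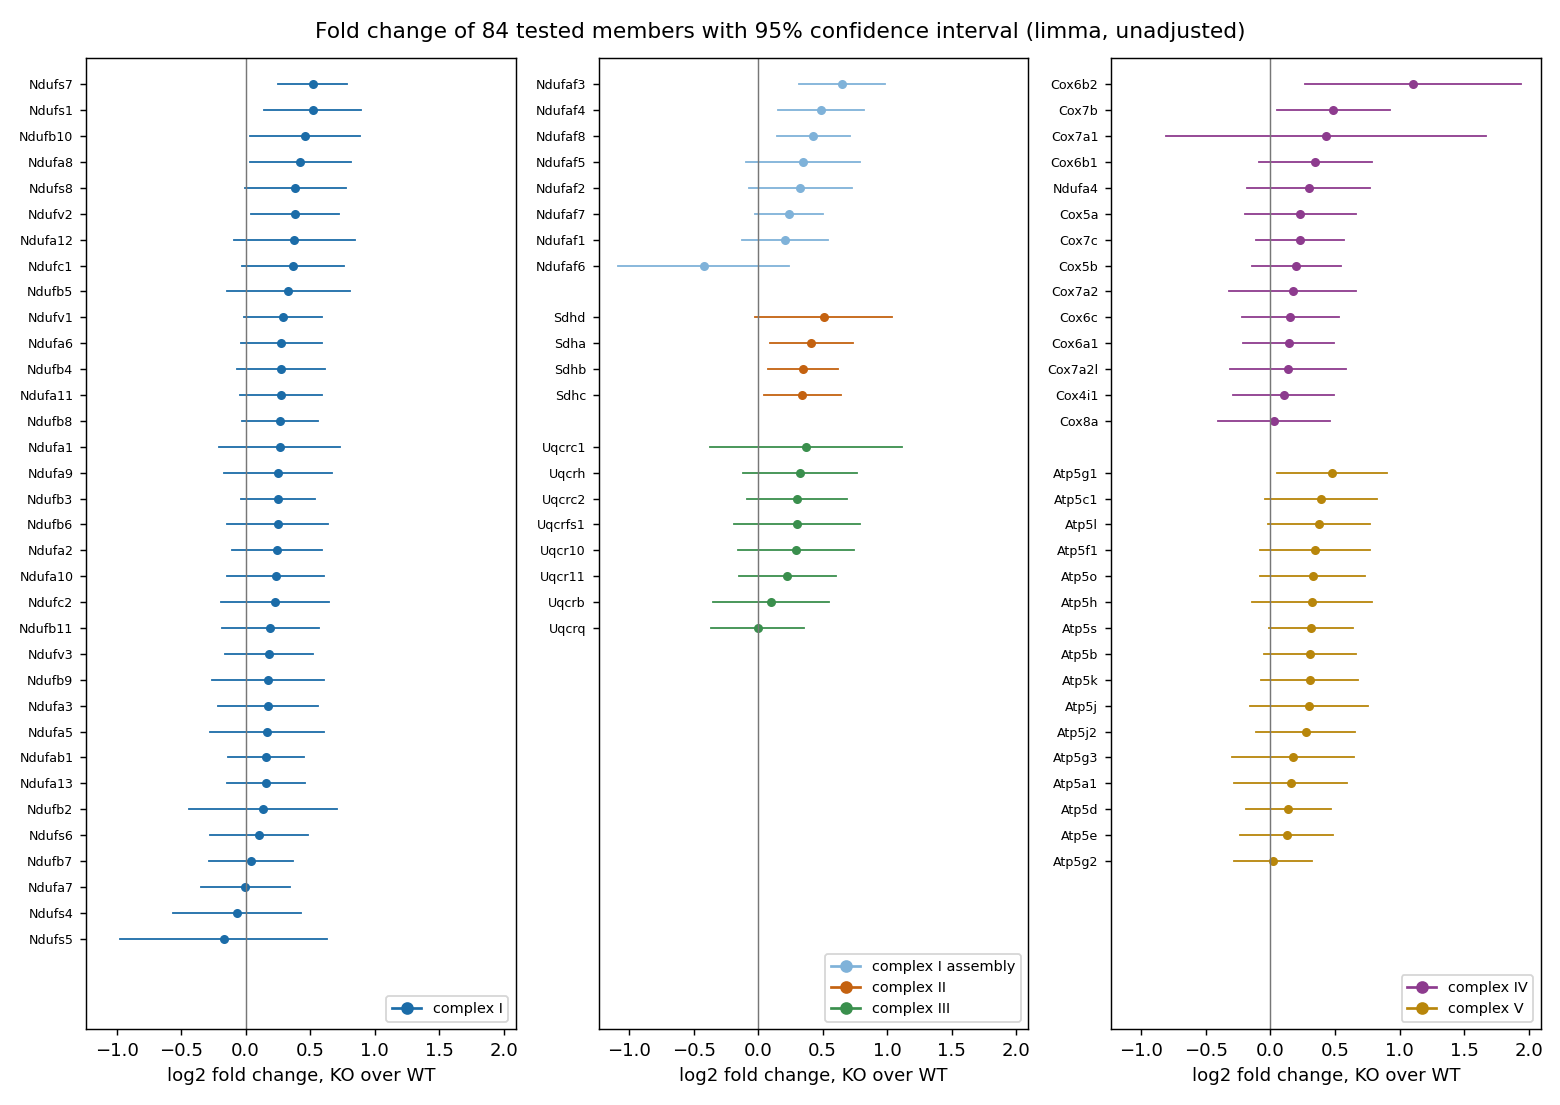
Log2 fold change, KO over WT, of 84 of the 85 tested members (points) with the unadjusted 95% confidence interval from limma (lines), coloured by complex. Most points lie between 0 and 0.5, Cox6b2 lies at 1.10 and Ndufaf6 at -0.42.

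Complex III takes electrons from coenzyme Q and hands them to cytochrome c. Of its 8 genes, 4 had both KO pools above both WT pools and 4 overlapped. The first count is not far from the 31.6% of all genes tested. The median log2 fold change was 0.30 and 0.12 against WT pool 2 alone. The summed level overlapped between groups, at 1072 and 976 FPKM in the KO pools, against 786 and 978 FPKM in the WT pools. Uqcrh, the hinge protein that contacts cytochrome c1, stood at 109 and 103 FPKM in the KO pools, against 73.9 and 96.7 FPKM in the WT pools (log2 fold change 0.33, limma adjusted p = 0.282). Uqcrc2, a core protein on the matrix side, stood at 79.2 and 67.7 FPKM in the KO pools, against 54.7 and 64.2 FPKM in the WT pools (log2 fold change 0.30, limma adjusted p = 0.266). Of its 100-base stretches, 22.7% also occur in Pdzd9, which overlaps it on the opposite strand. Pdzd9 took 7 and 3 reads in KO and 6 and 8 in WT, where Uqcrc2 took 3604 and 2961 in KO and 2360 and 2578 in WT. In Uqcrh and Uqcrc2 the lower KO pool was only just above WT pool 2. The small subunit Uqcr10 had the highest level of the complex, at 259 and 236 FPKM in the KO pools, against 179 and 227 FPKM in the WT pools (log2 fold change 0.29, limma adjusted p = 0.329). Uqcrfs1, the Rieske iron-sulfur protein, averaged 163 ± 19.8 FPKM in KO and 133 ± 24.1 FPKM in WT (SD, n = 2 each), with overlapping pools. Uqcrq stood at 140.4 and 134 FPKM in the KO pools, against 127 and 149 FPKM in the WT pools (log2 fold change -0.0032, and 0.06 with FPKM rescaled to the listed reads), so KO values lay between the WT values.

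Complex IV, cytochrome c oxidase, has nuclear subunits found in most tissues and isoforms restricted to some of them. The summed level of its 20 genes overlapped between groups. It was 2242 and 2076.5 FPKM in the KO pools, against 1753 and 2077.7 FPKM in the WT pools. The 11 widely found subunits had a median log2 fold change of 0.20, which was 0.08 against WT pool 2 alone and 0.32 against WT pool 1 alone. In 7 of the 11 the groups did not overlap, with KO higher (31.6% of all genes tested). Cox7b, encoded on the X chromosome, stood at 114 and 102 FPKM in the KO pools, against 67.96 and 86.8 FPKM in the WT pools (log2 fold change 0.49, SE 0.17, limma adjusted p = 0.152). Cox6b1, on the side where cytochrome c docks, stood at 206 and 188 FPKM in the KO pools, against 138 and 174 FPKM in the WT pools (log2 fold change 0.35, SE 0.17, limma adjusted p = 0.257). Cox4i1, the largest nuclear subunit, stood at 279 and 266 FPKM in the KO pools, against 233 and 277 FPKM in the WT pools, and Cox8a at 416 and 377 FPKM in the KO pools, against 352 and 428 FPKM in the WT pools. Both overlapped, with log2 fold changes of 0.10 and 0.03. Ndufa4, named for complex I and later placed in complex IV, stood at 169 and 159 FPKM in the KO pools, against 115 and 155 FPKM in the WT pools (log2 fold change 0.29). Cox7a2l, which helps join complexes III and IV into supercomplexes, stood at 115 and 95.5 FPKM in the KO pools, against 85.5 and 106 FPKM in the WT pools (log2 fold change 0.14).

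Cox6b2 had the largest fitted fold change of the 85 tested genes. It is known as the testis isoform of Cox6b and lies at chromosome 7, 4751792 to 4753094, minus strand. It stood at 14.4 and 7.48 FPKM in the KO pools, against 4.80 and 4.36 FPKM in the WT pools, so both KO pools were above both WT pools and KO pool 1 was well above KO pool 2. The fit gave a log2 fold change of 1.10 (SE 0.32) and a limma adjusted p of 0.116, with a 95% interval of 0.27 to 1.94. Without KO pool 2 the log2 fold change was 1.56, with a limma adjusted p of 0.0393, and without KO pool 1, the higher of the pair, it was 0.65, with an adjusted p of 0.181. Of the summed Cox6b level, Cox6b2 made up 6.54% and 3.83% in the KO pools, against 3.38% and 2.45% in the WT pools, and Cox6b1 made up the rest. No 100-base stretch of its longest coding transcript occurs in another gene. Its promoter is printed above.

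The other restricted isoforms were low. Cox7a1, the heart and muscle form, stood at 4.61 and 1.53 FPKM in the KO pools, against 1.66 and 2.14 FPKM in the WT pools, with KO pool 1 high alone (log2 fold change 0.43, SE 0.47, limma adjusted p = 0.591), where without KO pool 1 the log2 fold change was -0.24. Of the summed level of Cox7a1, Cox7a2 and Cox7a2l, it made up 2.26% and 0.939% in the KO pools, against 1.13% and 1.18% in the WT pools. Cox7a2 stood at 84.4 and 65.5 FPKM in the KO pools, against 59.3 and 73.2 FPKM in the WT pools (log2 fold change 0.17). Cox6a2, another heart and muscle form, was listed at 0.330 and 1.03 FPKM in the KO pools, against 0.609 and 0.374 FPKM in the WT pools. Cox4i2, known from lung, was listed at 0.0712 and 0.370 FPKM in the KO pools, against 0 and 0.0807 FPKM in the WT pools. Cox8b, a heart and muscle form in mice, was listed at 0.162 FPKM in KO pool 2 and at 0 in the other 3 pools. The testis forms Cox7b2 and Cox8c were listed at 0 in all pools. Ndufa4l2, which hypoxia induces in many cells, was listed at 0.256 and 0.213 FPKM in the KO pools, against 0.270 and 0.523 FPKM in the WT pools. Under 1 FPKM, these isoforms do not allow a comparison.

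**Figure D4:**
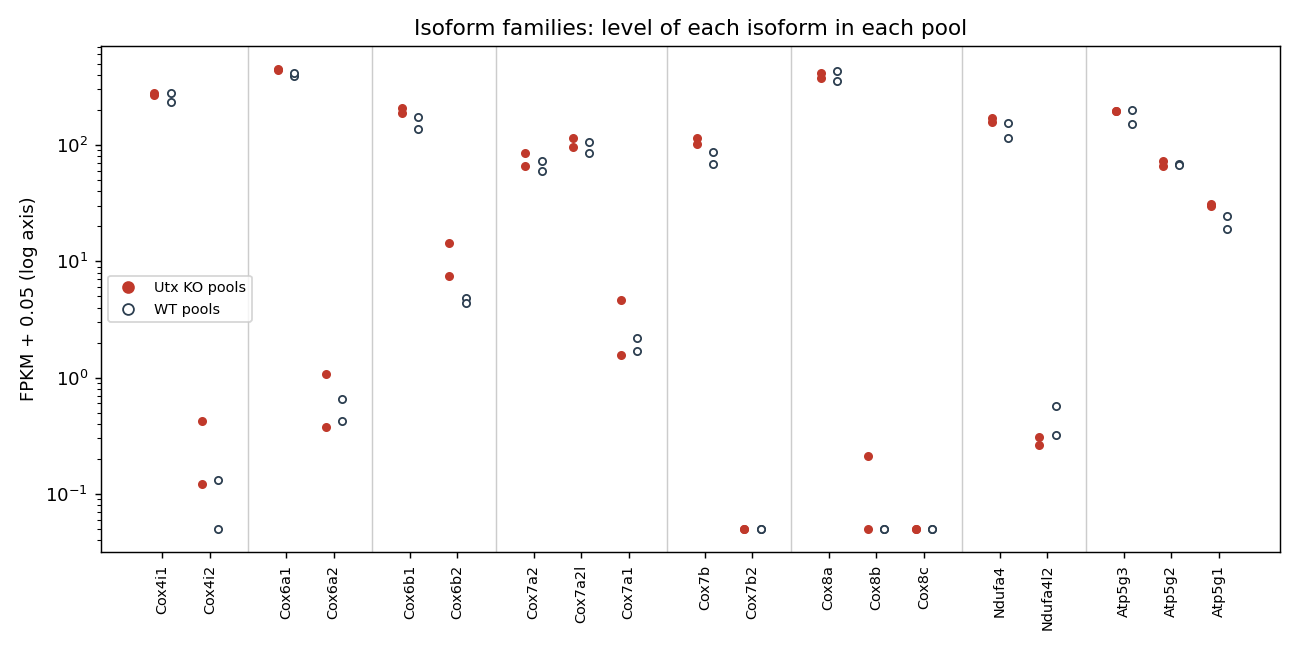
Level of each isoform in the 8 isoform families, as FPKM + 0.05 on a log axis, with the 2 KO pools (filled) left of the 2 WT pools (open). Points at the floor of 0.05 were listed at 0, and Cox6b2 and Cox7a1 are the restricted isoforms above 1 FPKM in every pool.

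Complex V joins a catalytic F1 head, a rotating ring of c subunits in the membrane, and stalks that hold them. All 16 of its genes were tested. In 12 both KO pools lay above both WT pools (31.6% of all genes tested), and 4 overlapped. The median log2 fold change was 0.30, against 0.16 with WT pool 2 alone. The summed level was 1434 and 1355 FPKM in the KO pools, against 1066 and 1278 FPKM in the WT pools. All 7 genes of the stalk and membrane part did not overlap, with KO higher (31.6% of all genes tested). Their median was 0.32 (0.16 against WT pool 2 alone). They are Atp5f1, Atp5h, Atp5j, Atp5j2, Atp5k, Atp5l and Atp5o. Atp5l, the g subunit, had the smallest p of these, at 15.2 and 13.8 FPKM in the KO pools, against 9.87 and 12.3 FPKM in the WT pools (log2 fold change 0.38, SE 0.15, limma adjusted p = 0.195), but 69.0% of its 100-base stretches occur in 6 other listed genes. Atp5b of the head, with the values above, had a log2 fold change of 0.31 (SE 0.14) and a limma adjusted p of 0.229. Atp5c1, the central rotor shaft of the head, averaged 114 ± 5.93 FPKM in KO and 87.4 ± 15.7 FPKM in WT (SD, n = 2 each). Atp5s, a factor tied to the complex by name, stood at 4.24 and 4.83 FPKM in the KO pools, against 3.60 and 3.49 FPKM in the WT pools (log2 fold change 0.31, SE 0.12, limma adjusted p = 0.193).

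The c ring is built from the product of 3 genes that encode the same mature protein and differ in their import signals. Atp5g1 stood at 30.8 and 29.6 FPKM in the KO pools, against 18.7 and 24.7 FPKM in the WT pools (log2 fold change 0.48, SE 0.16, limma adjusted p = 0.151), with both KO pools higher. Atp5g2 stood at 72.6 and 65.4 FPKM in the KO pools, against 68.6 and 67.6 FPKM in the WT pools (log2 fold change 0.02, and -0.03 with the trend on gene length removed). Atp5g3, the most abundant, stood at 197 and 194 FPKM in the KO pools, against 149.7 and 201 FPKM in the WT pools (log2 fold change 0.17). Both of these overlapped. Of the summed level of the 3 c genes, Atp5g1 made up 10.2% and 10.2% in the KO pools, against 7.91% and 8.42% in the WT pools. Its share was higher in both KO pools, a description with no test. In Atp5g1, 6.22% of 100-base stretches occur in other genes.

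For some of these genes the listed level may depend on how reads were counted, which was not tested. Of the 92, 30 share at least 1 stretch of 100 bases with another gene in GENCODE M21, and 16 share over 10%. The stretches were taken from the longest coding transcript and searched on both strands. Some matches are with neighbours that overlap on the opposite strand, such as Pdzd9 for Uqcrc2. Among the 70 tested members with at most 10% shared, 66 had a log2 fold change above 0, and the median was 0.27. In 46 both KO pools lay above both WT pools (31.6% of all genes tested). Some of these 70 still share a smaller part, and the part of sharing in the results was not tested. Ndufs3, a core subunit that complex I needs, was listed at 0 in 3 pools and at 0.0272 FPKM, a single read, in WT pool 1. Of its stretches, 19.9% occur in Gm12251, which took 83 and 68 reads in KO and 55 and 78 in WT. Uqcrc1, the partner of Uqcrc2, was listed at only 2.58 and 1.40 FPKM in the KO pools, against 1.30 and 1.43 FPKM in the WT pools (log2 fold change 0.37, SE 0.28, limma adjusted p = 0.440). Atp5a1, which forms the head in equal numbers with Atp5b, stood at 8.30 and 7.94 FPKM in the KO pools, against 6.24 and 8.38 FPKM in the WT pools, far below Atp5b. Neither Uqcrc1 nor Atp5a1 shares a 100-base stretch with another gene. The reason for these low listings was not tested, so their levels are not comparable with those of their partners. The listed length was at least 2 times that of the longest coding transcript in 24 members, and that same length divides the reads of every pool.

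Nuclear genes of the respiratory chain that the name rule misses were read from the same fit. Of 46 assembly factors outside the rule, 40 were tested, 0 were called, and 30 did not overlap with KO higher (31.6% of all genes). Their median was 0.31. Taco1, which helps translate a mitochondrially encoded complex IV subunit, stood at 17.7 and 15.8 FPKM in the KO pools, against 10.9 and 10.3 FPKM in the WT pools (log2 fold change 0.64, SE 0.11, limma adjusted p = 0.0544). Cox15, which makes heme a, stood at 12.1 and 11.8 FPKM in the KO pools, against 7.98 and 8.28 FPKM in the WT pools (log2 fold change 0.53, SE 0.10, limma adjusted p = 0.0594). Both came near the threshold without passing it. Of 6 further subunits and factors in the table, 0 were called and the median was 0.26. Cyc1, cytochrome c1 of complex III, stood at 110.0 and 105 FPKM in the KO pools, against 81.8 and 88.7 FPKM in the WT pools (log2 fold change 0.33), and Dmac1, a factor for the complex I membrane arm, at 31.6 and 31.3 FPKM in the KO pools, against 23.2 and 21.6 FPKM in the WT pools (log2 fold change 0.48, SE 0.10, limma adjusted p = 0.0735).

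Pathways that supply the chain were read in the same way. Of 15 TCA cycle genes Idh3a rose and 0 fell (1.60% and 3.14% of all genes tested), and the median was 0.32. In 12 both KO pools were higher than both WT pools (31.6% of all genes tested). Idh3a, a subunit of the NADH-producing isocitrate dehydrogenase, stood at 12.5 and 14.7 FPKM in the KO pools, against 6.99 and 7.17 FPKM in the WT pools (log2 fold change 0.89, SE 0.12, limma adjusted p = 0.0416). Of 13 genes of coenzyme Q synthesis 0 were called and the median was 0.31. In 8 of them both KO pools were higher and in 2, Coq8a and Coq10b, lower (31.6% and 29.9% of all genes tested). Coq9 stood at 32.1 and 31.2 FPKM in the KO pools, against 21.8 and 20.3 FPKM in the WT pools (log2 fold change 0.58, SE 0.10, limma adjusted p = 0.0545). Coq10b, a carrier of coenzyme Q, stood at 7.94 and 9.27 FPKM in the KO pools, against 14.5 and 14.1 FPKM in the WT pools (log2 fold change -0.70, SE 0.12, limma adjusted p = 0.0524). Of 22 tested genes of import and the outer membrane 0 were called, with a median of 0.22. Mfn2, which fuses mitochondria, stood at 22.3 and 21.7 FPKM in the KO pools, against 14.8 and 14.5 FPKM in the WT pools (log2 fold change 0.57, SE 0.10, limma adjusted p = 0.0528), and the pore protein Vdac1 at 93.6 and 86.9 FPKM in the KO pools, against 62.8 and 66.3 FPKM in the WT pools (log2 fold change 0.48, SE 0.11, limma adjusted p = 0.0852).

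Among 13 genes of mitochondrial DNA upkeep and transcription 1 rose and 1 fell (1.60% and 3.14% of all genes tested), with a median of 0.20. Twnk, the replicative helicase, stood at 13.2 and 12.7 FPKM in the KO pools, against 6.66 and 7.24 FPKM in the WT pools (log2 fold change 0.85, SE 0.11, limma adjusted p = 0.0350). Polg2, the accessory subunit of the mitochondrial DNA polymerase, stood at 1.67 and 1.14 FPKM in the KO pools, against 3.77 and 3.65 FPKM in the WT pools (log2 fold change -1.16, SE 0.19, limma adjusted p = 0.0494). The calls of Idh3a, Twnk and Polg2 were each lost with any 1 pool left out, at adjusted p of 0.0931 to 0.105, 0.0802 to 0.131 and 0.0882 to 0.139. They were also lost with no filter on low values (adjusted p 0.113, 0.103 and 0.136 in the same order), with the replicate block (0.0664, 0.0695 and 0.0728) and with no mean-variance trend (0.0588, 0.0532 and 0.0596). The call of Polg2 was lost in addition with a pseudocount of 0.1 (0.0521), with FPKM rescaled to the listed reads (0.0543) and with robust limma (0.0504). Of 8 tested mitochondrial antioxidant genes 0 were called, and the median was 0.36. In 7 both KO pools were higher than both WT pools (31.6% of all genes tested). Txnrd2, the mitochondrial thioredoxin reductase, stood at 3.56 and 2.68 FPKM in the KO pools, against 0.282 and 0.809 FPKM in the WT pools (log2 fold change 1.83, SE 0.32, limma adjusted p = 0.0539). Txnrd2 is among the 7, but it passed the filter of 1 FPKM only through the KO pools, where it was high. Its fold change therefore gives no independent support. Prdx3, a peroxidase that Txnrd2 serves, stood at 111 and 117 FPKM in the KO pools, against 81.5 and 73.3 FPKM in the WT pools (log2 fold change 0.56, SE 0.12, limma adjusted p = 0.0735). Of 12 chaperones and proteases 0 were called, with a median of 0.16. Dnaja3 stood at 37.8 and 34.3 FPKM in the KO pools, against 28.02 and 24.8 FPKM in the WT pools (log2 fold change 0.44) and Trap1 at 61.9 and 52.9 FPKM in the KO pools, against 45.5 and 45.9 FPKM in the WT pools (log2 fold change 0.32).

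Regulators of mitochondrial genes lay on both sides, with a fitted log2 fold change above 0 in 7 and below 0 in 7. The quartiles were -0.37 and 0.17, so the spread reached further down than up. At an unadjusted limma p under 0.05, 2 were higher and 5 lower, against 12.7% and 14.4% of all genes tested. Of 14 tested 0 were called, the median was 0.04, and 3 did not overlap with KO higher and 6 with KO lower, against 31.6% and 29.9% of all genes tested, so neither count was far from that share. Esrra, a nuclear receptor that binds many respiratory gene promoters, stood at 18.4 and 20.3 FPKM in the KO pools, against 13.7 and 12.8 FPKM in the WT pools (log2 fold change 0.53, SE 0.11, limma adjusted p = 0.0721). Nfe2l2, which drives antioxidant genes, stood at 20.99 and 24.2 FPKM in the KO pools, against 30.3 and 37.7 FPKM in the WT pools (log2 fold change -0.58, SE 0.16, limma adjusted p = 0.107). Ppargc1a, the coactivator of mitochondrial biogenesis, was chosen after its values were seen. It stood at 1.97 and 2.16 FPKM in the KO pools, against 3.29 and 2.77 FPKM in the WT pools (log2 fold change -0.46, SE 0.15, limma adjusted p = 0.144), so it was lower in both KO pools while most respiratory genes were higher. The 13 protein-coding genes of the mitochondrial genome summed to 30925 and 24128 FPKM in KO, against 23684 and 28228 FPKM in WT. These sums overlapped, and 0 of the 13 were called.

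**Figure D5:**
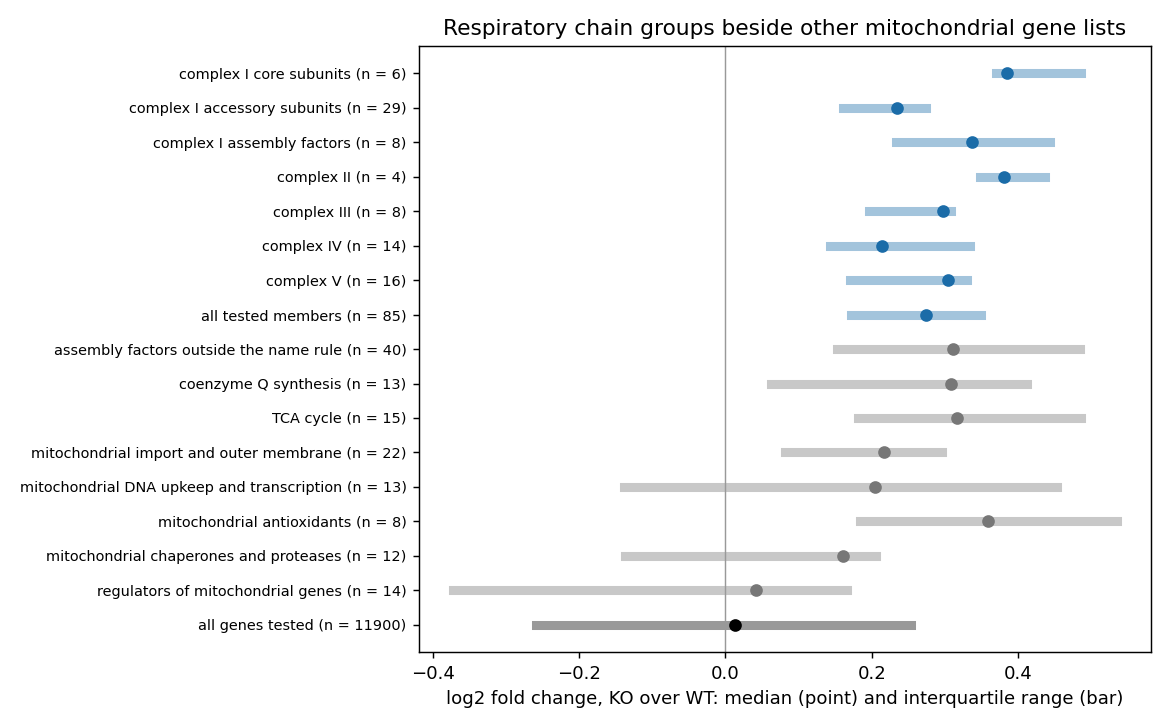
Median log2 fold change, KO over WT (points), and interquartile range of the genes (bars) for the respiratory chain groups (blue), other mitochondrial lists (grey) and all genes tested (black). The members' groups have medians from 0.21 to 0.38, against 0.01 for all 11900 genes tested.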

How the data were processed

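Liver RNA of 2 Utx KO and 2 WT pools was sequenced. The authors deposited 1 table, which per the file headers holds FPKM beside the length, biotype and position of each gene. The submitters' processing notes name HISAT2 2.0.5 and the builds mm10 and GRCm38.p6. The counting program, annotation and strand setting are not stated in the sources used here, so reads of overlapping or antisense genes cannot be told apart. Each pool had its own column, and 0 sample columns were left out. FPKM times length was a whole multiple of 1 step in 100.0% of values above 0, within 0.01 read, which gave back whole reads. For genes averaging 1 FPKM or more, log2(FPKM + 0.5) was compared between groups in R 4.3.3 by the two-sided moderated test of limma 3.58.1, with a mean-variance trend and 2 residual and 2.59 prior degrees of freedom, and p-values were adjusted over all 11900 genes by Benjamini-Hochberg. Fold changes on this scale understate those of low genes. The test was tried on simulated data with known changes, all larger than the fitted changes of most members. The trial therefore does not speak to changes as small as theirs.

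Members, lists and the rule for named genes were chosen with earlier results of these data known. The rule took Kdm6a, every called member and, in each complex, the 3 smallest p and the highest and lowest level; the 8 largest and 8 smallest fold changes; all isoform families; and the 2 smallest p of each other list, or its calls. A few further genes are named to describe their groups, and 1 member, counted in all totals, is not reported here by itself. Of the 92 members, all were found in GENCODE M21 and 81 had the same coordinates. Shared stretches were counted as 100-mers of the longest coding transcript found, on either strand, in transcripts of another gene. Of the list symbols, 2 were not found in the table and were not analysed here. Alternatives were the pseudocount, filter, scaling, limma variant, voom, protein-coding genes alone, length trend, replicate block and each pool left out. A GC trend and crossed replicate numbers were added after seeing the data. Figures were drawn with matplotlib 3.10.9.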

Additional observations from a re-analysis of the deposited data

How the results depend on the processing

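The count of members called higher was 0 except in 3 settings: 1 with voom on the recovered reads, 2 with protein-coding genes alone, and 1 without KO pool 2, so it was 0 to 1 with a pool left out. The count called lower was 0 in every setting tried. Over all genes, 564 calls became 0 with no filter on low values, 280 with no mean-variance trend, 1084 with voom, 1014 with protein-coding genes alone, 310 with the replicate number as a block, and 0 to 234 with a pool left out. The cause was not tested. The members' median log2 fold change was 0.25 to 0.34 in the other settings and 0.14 to 0.36 with a pool left out, the lowest without WT pool 1. Of 680 values of 38 named members under the alternatives, 657 kept sign and call, 4 passed the threshold and 19 changed sign. The 4 were Ndufs7 with voom, Ndufs7 and Ndufaf3 with protein-coding genes alone, and Cox6b2 without KO pool 2. Outside pools left out, the sign changed for Ndufa7 (0.060) and Uqcrq (0.061) with FPKM rescaled to the listed reads and for Atp5g2 (-0.032) with the length trend removed. With a pool left out it changed for 12 members, whose log2 fold changes ranged as follows: Atp5g2 -0.059 to 0.091, Atp5g3 -0.036 to 0.38, Cox4i1 -0.023 to 0.23, Cox7a1 -0.24 to 1.10, Cox7a2 -0.0092 to 0.35, Cox7a2l -0.014 to 0.29, Cox8a -0.11 to 0.17, Ndufa7 -0.10 to 0.095, Ndufb7 -0.076 to 0.16, Ndufs4 -0.31 to 0.18, Ndufs5 -0.52 to 0.18 and Uqcrq -0.12 to 0.11. Pools with the same replicate number share only that number, and over 11900 genes their deviations correlated at -0.14. The replicate block called 0 members and left their median at 0.27. With the numbers crossed, a pairing chosen after seeing the data, 552 genes and 0 members were called. With 2 pools a group, all p-values measure the spread between pools of 2 mice, and the 95% interval still included a KO level 1.5 times that of WT in 60 of 85 tested members.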

Other observations

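The mitochondrial chaperonin genes Hspd1 and Hspe1, chosen after their values were seen, ordered the pools unlike the respiratory chain genes. The list of 12 mitochondrial chaperones and proteases as a whole did not. Both KO pools lay above both WT pools in 7 of its genes and below in 1 (31.6% and 29.9% of all genes tested). Hspd1, the chaperonin that folds imported proteins, stood at 519 and 795 FPKM in the KO pools, against 1269 and 650 FPKM in the WT pools. Its partner Hspe1 stood at 274 and 495 FPKM in the KO pools, against 810 and 445 FPKM in the WT pools. WT pool 1 was the highest and KO pool 1 the lowest for both genes, and the groups overlapped. For most respiratory chain genes the order was the opposite, with WT pool 1 lowest in 74 of 85 tested members and KO pool 1 highest in 66.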
